A study of Mus musculus with 2 samples.

Results

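Nos2, Ass1 and Slc7a2, 3 genes of arginine uptake and use, were followed by their symbols among the 14654 genes of the table of raw counts, and all 3 were found. YUMMER1.7 melanoma tumors came from male C57BL/6 mice, 8 weeks of age, that were WT or Siah2-/-, and they had grown for 11 days. Sorted CD45+ cells, with a smaller number of CD45- cells added back at a ratio that the sources state differently, gave 1 droplet library per genotype (10x Genomics 3′ v2). YUMMER1.7 is a BRAF-mutant mouse melanoma line with added mutations that make it immunogenic, and the same line was injected in both groups, so that the genotype is that of the host. Because each genotype had only 1 library, no test over samples could be made. Host genotype, tumor pool, cell suspension, library and sequencing lane cannot be told apart.

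Arginine is taken up by cationic amino acid transporters such as that encoded by Slc7a2 (CAT2), which activated macrophages induce. The inducible nitric oxide synthase (iNOS, Nos2) turns it into nitric oxide and citrulline, and Ass1 takes the first step from citrulline back to arginine. In macrophages Nos2 is known for induction by interferon gamma and microbial products, and hypoxia is known to add to it. Nitric oxide from macrophages is known to act on microbes, tumor cells and T cells.

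In GRCm38, as annotated by GENCODE vM21, all 3 are protein-coding genes on plus strands, Nos2 (ENSMUSG00000020826, chromosome 11, 78920787 to 78960254), Ass1 (ENSMUSG00000076441, chromosome 2, 31470207 to 31520672) and Slc7a2 (ENSMUSG00000031596, chromosome 8, 40862396 to 40922308). No annotated gene overlapped a member on its own strand. No stretch of 31 bases was shared between the transcripts of the members, and none of Nos2 was shared with another gene, while 2.03% of those of Slc7a2 lay in a repeat. In Ass1, 1025 of the 2378 stretches of 31 bases in its transcripts (43.1%) also occur in Gm5424, so that reads of Ass1 and Gm5424 may have been split or lost in counting. Of the 3 members, Ass1 was matched in the RefSeq promoter table (GRCm38.p6). The 250 bases before its RefSeq start are shown because Ass1 was the member with an entry to read beside the hypoxia genes described below. The RefSeq start (31470270) lies 63 bases downstream of the GENCODE start given above, so the end of the stretch is within the gene as GENCODE annotates it. The sequence is printed with capitals for ACGTG, the core of the hypoxia response element, searched on both strands (plus strand, chr2:31470020-31470269).
Ass1: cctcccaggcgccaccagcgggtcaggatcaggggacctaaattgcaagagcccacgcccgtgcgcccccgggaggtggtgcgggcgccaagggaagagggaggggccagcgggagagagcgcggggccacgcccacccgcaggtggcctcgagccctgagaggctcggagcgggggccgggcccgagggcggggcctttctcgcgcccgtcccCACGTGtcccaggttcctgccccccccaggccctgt
The motif matched once on each strand, in the overlapping palindrome CACGTG from 31470234 to 31470239, which begins 36 bases before the RefSeq start and 27 bases after the GENCODE start. It was present in the 250 bases before the RefSeq start in 16.6% of 32851 promoters, and a match is a description of the letters, not of a bound site.

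The authors kept 4512 WT cells and 5563 cells of the library labelled Siah2-/-, with medians of 11434.5 and 8699 unique molecular identifiers (UMIs) per cell. The lowest kept cell had 6670 UMIs in WT and 4896 in the other library. The libraries shared 34 cell barcodes. Siah2 itself was counted in macrophages of both libraries, at 12.6 UMIs per 1000000 (CPM) in WT and 11.6 CPM in the library labelled Siah2-/-. The assay reads tags near the 3′ end, which may lie outside the deleted part, and the sources used here do not describe that part, so this checks no label, and Siah2-/- cells and values below are those of the library so labelled. Macrophages and monocytes were gated as cells with UMIs of at least 4 of 7 markers, among them Csf1r, Adgre1, Cd68, Fcgr1, Ms4a7 and Cd14, without 2 CD3 genes or 3 NK genes and without 3 dendritic cell genes. None of the 3 members entered a gate. The gate held 1933 WT cells and 2099 cells of Siah2-/-, with medians of 10086 and 8803 UMIs. With every cell thinned to 4000 UMIs, Csf1r had a UMI in 87.7% and 84.8% of them and Ptprc (CD45) in 58.1% and 66.2% (99% and 97.2%, and 88.7% and 89.4%, without thinning). Other gate markers differed more between the libraries. Thinned shares were 72.6% and 46.4% for Ms4a7, 57.8% and 43.1% for Adgre1 and 55.1% and 73.9% for Cd14 (83.2% and 58.4%, 83.0% and 65.3%, and 77.1% and 88.1% without thinning). Cd3d, a T cell marker, had a UMI in 2.33% and 7.0% of thinned cells (6.05% and 15.7% without thinning). The part of these differences in the values below was not tested. Macrophage states were named after the list of marker genes with the highest score in a cell, and 832 of the 4032 gated macrophages (20.6%) lay near a boundary between states. Resident-like cells made up 12.5% of WT and 1.72% of Siah2-/- macrophages, monocyte-like cells 9.73% and 20.1%, cycling cells 11.0% and 4.81%, Mgl2 and MHC class II cells 23.2% and 15.2%, and interferon-induced cells 18% and 13.4%. Monocyte-like cells of Siah2-/- had a median of 6591.5 UMIs, below the lowest kept WT cell. The part of the unlike lowest UMI counts in the state shares was not tested. The intervals given are exact 95% Poisson or binomial intervals, and those on ratios are exact conditional binomial intervals. They cover counting error only.

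All 3 members were higher in Siah2-/- macrophages, with log2 ratios from 1.23 to 3.31. Over all 10794 genes with at least 50 UMIs in the gated macrophages, 3.58% had a log2 ratio of at least 1 and 4.85% had one of at most -1, with a median of -0.07. By log2 ratio Nos2 stood at place 7 of these genes, Slc7a2 at place 84 and Ass1 at place 240. Gated macrophages held most of the UMIs of each member, from 61.8% for Ass1 in WT to 83.0% for Nos2 in WT. A further 13.7% to 29.1% lay in barcodes with both macrophage and T or NK markers, which may be doublets and were kept apart.

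**Figure D1:**
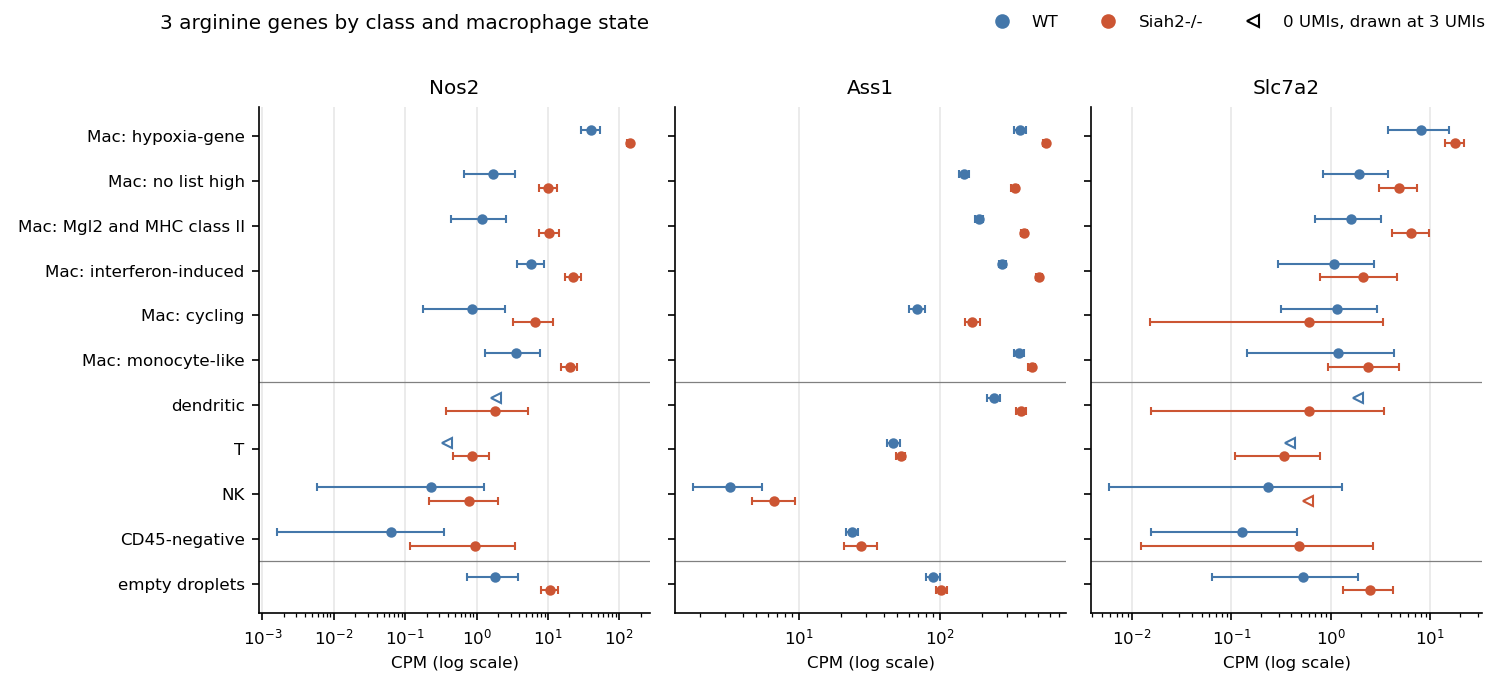
CPM (log scale) of each member in the 6 macrophage states with at least 50 cells in each library, in 4 other gated classes and in empty droplets, with 95% Poisson intervals, for WT (blue) and Siah2-/- (red). Open triangles mark 0 UMIs and are drawn at the level of 3 UMIs. The Siah2-/- points of Nos2 and Ass1 lie to the right of the WT points in every state drawn, and the hypoxia-gene state is highest for all 3 genes.

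Nos2, which encodes iNOS, had 93 UMIs in WT macrophages and 870 in those of Siah2-/-. Its level of 41.3 CPM (38.6 to 44.2) was 9.92-fold that of WT, 4.17 CPM (3.36 to 5.10), and the log2 ratio was 3.31 (3.0 to 3.63). With every cell thinned to 4000 UMIs, a Nos2 UMI was seen in 1.60% (1.09 to 2.27) of WT macrophages and in 10.3% (9.07 to 11.7) of the others, against 2.90% and 15.9% without thinning. The highest single cell held 8.60% of the UMIs in WT and 2.53% in Siah2-/-, and the tenth of cells with most Nos2 UMIs held 85.7% of those of Siah2-/-. The hypoxia-gene state, set by UMIs of genes such as Vegfa, Bnip3 and Hilpda, made up 5.64% (4.65 to 6.76) of WT macrophages and 23.4% (21.6 to 25.3) of those of Siah2-/-. It held 47.3% and 74.1% of the Nos2 UMIs of macrophages. Levels in that state were 39.9 CPM (29.0 to 53.5) in WT and 141 CPM (130 to 152) in Siah2-/-. The interferon-induced state held 5.86 CPM (3.68 to 8.88) and 22.4 CPM (17.3 to 28.6), close to the 20.2 CPM of monocyte-like cells of Siah2-/-, while every other state with 50 cells or more stayed at or below 10.5 CPM. Empty droplets of the Siah2-/- library held 10.7 CPM. With free RNA subtracted the log2 ratio over all macrophages was 3.31, and the part of free RNA in single states was not tested. The log2 ratio within the hypoxia-gene state was 1.82 (1.38 to 2.29), and it was 1.94 (1.22 to 2.70) in the interferon-induced state and 2.50 (1.29 to 4.0) in monocyte-like cells, with 6 WT UMIs in the last. In resident-like cells, with 5 and 3 UMIs, the log2 ratio of 1.95 had an interval that included 0 (-0.74 to 4.31). With states weighted by WT shares in both libraries, the log2 ratio over macrophages was 2.12. The shift in state shares and the difference within states therefore both entered the value for all macrophages.

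**Figure D2:**
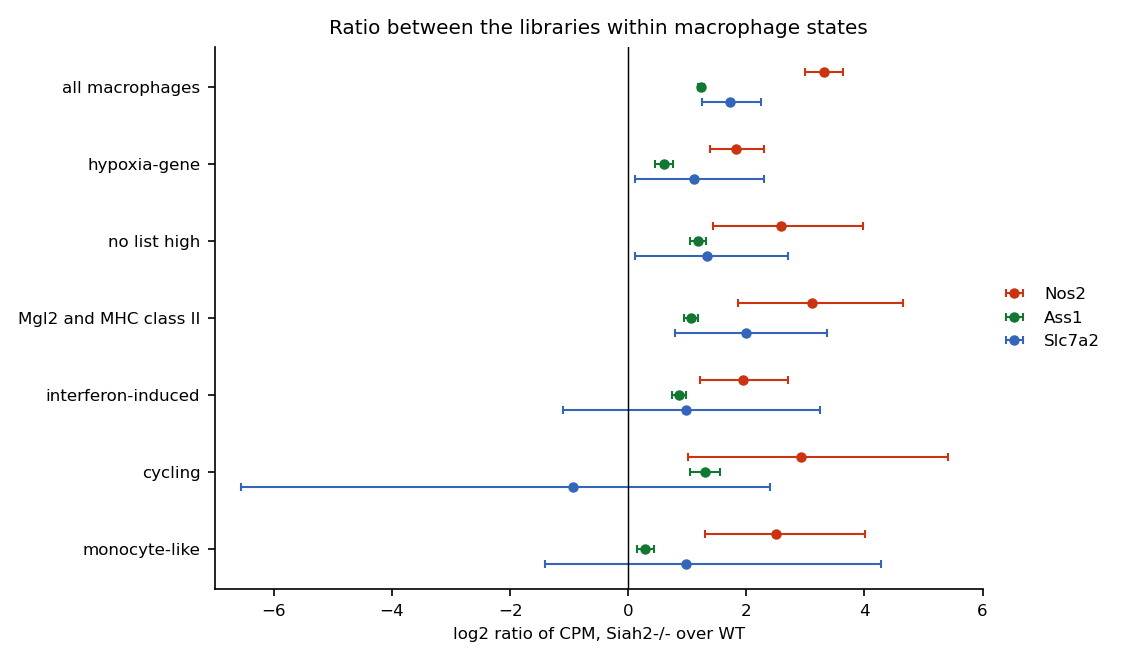
Log2 ratio of CPM (Siah2-/- over WT) of each member in all macrophages and in the 6 states with at least 50 cells in each library, with exact 95% intervals for counting error. Nos2 and Ass1 lie above 0 with their intervals in every row drawn (the resident-like state, with 36 Siah2-/- cells, is not drawn), and the interval of Slc7a2 includes 0 in the interferon-induced, cycling and monocyte-like states.

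In T, NK and dendritic cells Nos2 was near 0, while in Siah2-/- the barcodes with mixed markers held 24.9 CPM (22.1 to 28.0) and cells in no gate 8.29 CPM (5.42 to 12.2). WT had no Nos2 UMI in 678 T cells and 120 dendritic cells, where 3 UMIs would be 0.388 and 1.86 CPM, and 1 UMI in NK cells. In Siah2-/- T cells stood at 0.870 CPM (0.463 to 1.49), NK cells at 0.789 CPM (0.215 to 2.02) and dendritic cells at 1.83 CPM (0.377 to 5.34). Of the 13 Nos2 UMIs of Siah2-/- T cells, 4 were in 1 cell, and the part of free RNA in these levels was not tested. For comparison, the macrophage genes C1qa, C1qb and C1qc stood in T cells at 3.65% (WT) and 5.31% (Siah2-/-) of their level in empty droplets.

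Ass1 acts on citrulline, which iNOS releases, and single cells were examined for both transcripts. After thinning, 21 of 1933 WT macrophages had a UMI of both (1.09%, 0.674 to 1.66), and 179 of 2099 Siah2-/- macrophages did (8.53%, 7.37 to 9.81). The product of the single shares was 0.634% in WT and 6.56% in Siah2-/-, and the odds ratios were 3.28 and 2.98, as descriptions over cells. Of the macrophages with a Nos2 UMI, 67.7% and 82.5% also had one of Ass1. In T cells 0 of 678 (WT) and 1 of 1687 (Siah2-/-) had both.

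Within the hypoxia-gene state the odds ratio was 1.29 in WT (109 cells) and 2.10 in Siah2-/- (492 cells). When the products were taken within each state and summed, 16.1 cells with both were given by the products in WT and 152 in Siah2-/-, so that the observed numbers were 1.30 and 1.17 times the product. In Siah2-/- the share of cells with Nos2 went up with the Ass1 level of the cell. It was 4.95% (3.52 to 6.73) at 0 Ass1 UMIs, 8.06% (5.79 to 10.9) at 1, 14.3% (11.6 to 17.3) at 2 to 4 and 21.9% (17.0 to 27.5) at 5 or more. In hypoxia-gene cells of Siah2-/- the share was 18.8% (12.4 to 26.6) at 0 and 42.3% (31.2 to 54.0) at 5 or more, and in the other states it was 2.19% (1.20 to 3.64) and 12.7% (8.14 to 18.6). In WT it was 0.855% (0.411 to 1.57) at 0 and 7.27% (2.02 to 17.6) in the 55 cells with 5 or more.

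**Figure D3:**
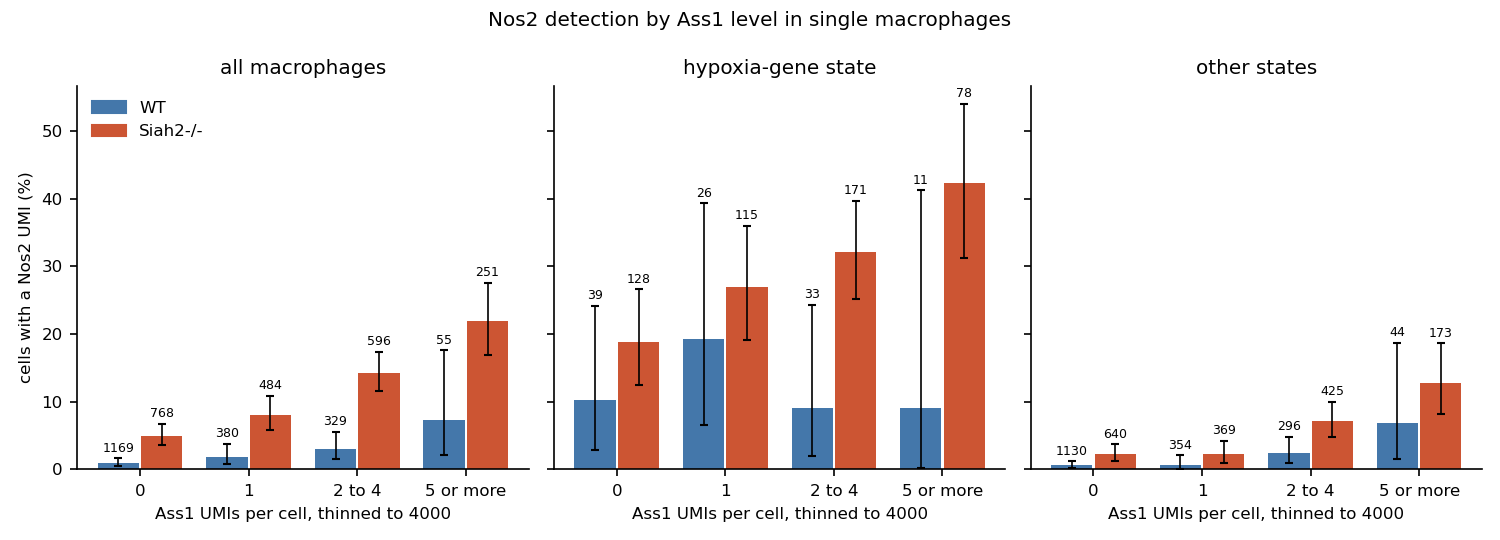
Share of macrophages with a Nos2 UMI (%) by the number of Ass1 UMIs in the same cell, each cell thinned to 4000 UMIs, in all macrophages, hypoxia-gene cells and other states, for WT (blue) and Siah2-/- (red), with exact 95% binomial intervals and the number of cells above each bar. Siah2-/- bars go up from 4.95% to 21.9% in all macrophages, and WT hypoxia-gene bars, of 11 to 39 cells, overlap in their intervals.

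Cells with a Nos2 UMI were compared with the other macrophages for 74 genes, those of the fixed lists and the other members. In Siah2-/- the interval of the log2 ratio lay above 0 for 20 and below 0 for 12, and in WT for 18 and 2. The counts over all states rest on 217 cells with Nos2 in Siah2-/- and 31 in WT. Within hypoxia-gene cells the counts were 17 and 4 in Siah2-/- and 1 and 2 in WT. In the other states they were 15 and 3, and 13 and 2. No share over all genes was taken for this comparison, so the counts describe the lists only. Of the 37 genes of the arginine pathway lists, 2 lay above and 8 below in Siah2-/-, and 1 and 0 in WT. In Siah2-/- 2 lay above and 3 below within hypoxia-gene cells, and 1 and 2 in the other states. The genes named here were chosen after their values were seen. In Siah2-/-, the 217 cells with Nos2 had 757 CPM (700 to 817) of Ass1 against 416 CPM (402 to 431) in the 1882 without, a log2 ratio of 0.86 (0.74 to 0.98). The ratio was 0.54 (0.37 to 0.71) within hypoxia-gene cells and 0.95 (0.75 to 1.15) in the other states. Ptgs2, the inducible cyclooxygenase, had 185 CPM (158 to 216) with Nos2 and 54.2 CPM (49.1 to 59.7) without, with log2 ratios of 1.32 (0.96 to 1.68) within hypoxia-gene cells and 1.15 (0.56 to 1.70) in the other states. Il1b, which encodes interleukin 1 beta, stood at 3152 CPM (3035 to 3272) and 2123 CPM (2090 to 2156). Smox, spermine oxidase, had 248 CPM (216 to 283) and 126 CPM (118 to 134), a log2 ratio of 0.97 (0.75 to 1.19) that was 0.88 (0.57 to 1.19) within hypoxia-gene cells. Hilpda, a hypoxia-induced lipid droplet gene that also sets the state, had 422 CPM (380 to 467) with Nos2 and 92.4 CPM without. Among the genes that were lower with Nos2 in Siah2-/- were Srm and Sms, which make spermidine and spermine, with log2 ratios of -1.18 (-2.42 to -0.16) and -1.51 (-2.85 to -0.44), and Paox, a polyamine oxidase, with -1.23 (-2.47 to -0.22). Qdpr and Spr, of tetrahydrobiopterin synthesis and recycling, had -1.42 (-2.44 to -0.56) and -0.70 (-1.41 to -0.06). Gatm, of creatine synthesis, had -0.48 (-0.79 to -0.18), Sat1, which acetylates polyamines, -0.41 (-0.55 to -0.28), and Ifngr1 -0.49 (-0.71 to -0.28). Within hypoxia-gene cells the intervals of Srm, Sms and Qdpr stayed below 0, but on only 2, 3 and 6 UMIs in the 143 cells with Nos2. The count of Srm is below the floor of 3 UMIs and that of Sms is at it. The intervals of Paox, Spr, Gatm, Sat1 and Ifngr1 included 0 in hypoxia-gene cells. In WT Ifngr1 was lower with Nos2 too, at -1.09 (-1.90 to -0.38).

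For other listed genes the ratio changed with the state or had an interval that included 0. Gch1, the rate-limiting enzyme of the tetrahydrobiopterin cofactor of iNOS, had 93.3 CPM (74.1 to 116) with Nos2 and 78.9 CPM without, and the interval of its log2 ratio of 0.24 included 0 (-0.11 to 0.58), while within hypoxia-gene cells it was 0.65 (0.13 to 1.16). Asl, the enzyme after Ass1, had 55.3 CPM (40.8 to 73.3) and 55.7 CPM. Cxcl10, an interferon-induced chemokine, had 646 CPM (594 to 702) with Nos2 and 864 CPM without over all states. Within hypoxia-gene cells it was in the other direction, at 381 CPM (332 to 435) and 294 CPM (266 to 324), as it was in the other states, at 1159 CPM (1039 to 1288) and 994 CPM (969 to 1019). Cxcl9, also induced by interferon gamma, had 613 CPM (562 to 667) with Nos2 and 440 CPM without, and log2 ratios of 0.21 (-0.01 to 0.42) within hypoxia-gene cells and 1.03 (0.84 to 1.21) in the other states. Chil3, a chitinase-like gene of monocytes, had a log2 ratio of -0.62 (-0.75 to -0.50) over all states but 0.85 (0.58 to 1.11) within hypoxia-gene cells and 0.01 (-0.15 to 0.17) in the other states. These values are of Siah2-/-, and WT had only 31 cells with Nos2. Chil3 had 0.55 (0.19 to 0.89) over all states, -2.30 (-3.63 to -1.24) within hypoxia-gene cells and 1.24 (0.86 to 1.60) in the other states of WT. Cxcl10 had 0.72 (0.46 to 0.97) over all states and 0.10 (-0.64 to 0.76) within hypoxia-gene cells. Cxcl9 had 1.46 (1.21 to 1.71) and -0.91 (-1.63 to -0.27). The difference between the libraries in these ratios was not tested. In WT Ass1 stood at 460 CPM (348 to 596) with Nos2 and at 199 CPM (189 to 209) without, and Ptgs2 at 129 CPM (73.8 to 210) and 14.9 CPM (12.2 to 17.9). Within WT hypoxia-gene cells, which held 13 of the 31, Ass1 had 365 CPM (220 to 571) with Nos2 and 414 CPM (352 to 484) without, and Ptgs2 had 38.5 CPM (4.66 to 139) and 46.9 CPM (27.8 to 74.1). The intervals of both log2 ratios included 0, at -0.18 (-0.95 to 0.51) and -0.29 (-3.44 to 1.78). In the other states of WT, with 18 such cells, Ass1 had 528 CPM (373 to 724) and 187 CPM, and Ptgs2 had 194 CPM (106 to 326) and 13.2 CPM.

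Ass1, the argininosuccinate synthase that recycles citrulline, was counted 3960 times in WT and 8774 times in Siah2-/- macrophages, or 177 CPM (172 to 183) against 417 CPM (408 to 426). The log2 ratio was 1.23 (1.18 to 1.29). Its levels were spread more evenly than those of Nos2, with a UMI in 39.5% (37.3 to 41.7) and 63.4% (61.3 to 65.5) of thinned macrophages. In WT the hypoxia-gene (371 CPM) and monocyte-like states (365 CPM) were highest with overlapping intervals, followed by interferon-induced cells (278 CPM), and resident-like cells were lowest at 28.9 CPM (23.3 to 35.4). In Siah2-/- the order began with hypoxia-gene (565 CPM), interferon-induced (505) and monocyte-like cells (447). The within-state log2 ratios ran from 0.29 (0.15 to 0.43) in monocyte-like cells to 1.66 (1.11 to 2.19) in resident-like cells, and with WT state shares the ratio was 0.89. Gm5424, the copy that shares stretches of sequence, had 230 UMIs in WT macrophages and 888 in the others, so that it took 5.49% and 9.19% of the sum with Ass1. The log2 ratio of the sum was 1.29, an alternative chosen after the data were seen.

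Ass1 was the member with a clear level outside macrophages. Dendritic cells had 241 CPM (218 to 266) in WT and 376 CPM (347 to 407) in Siah2-/-, above the 89.4 and 103 CPM of empty droplets. Of these cells 66.7% and 52.7% had a UMI of Cd68, 38.3% and 32.7% of Csf1r, and 20% and 22% of Cd3d. The part of macrophages or doublets in the dendritic level was not tested. T cells had 46.7 CPM (42.0 to 51.8) and 52.7 CPM (49.1 to 56.5), above the 3.24 CPM (1.77 to 5.44) and 6.71 CPM (4.64 to 9.37) of NK cells, and the part of free RNA in these levels was not tested. The level was higher in T cells with Cd4 and without Cd8a. Among these Ass1 had 216 CPM (177 to 261) in 46 WT cells and 103 CPM (90.2 to 117) in 328 cells of Siah2-/-, a log2 ratio of -1.07 (-1.41 to -0.72) and so opposite in sign to macrophages. T cells with Cd8a and without Cd4 had 20.7 CPM (17.1 to 24.8) and 33.9 CPM (30.1 to 38), a log2 ratio of 0.71 (0.40 to 1.04). Ratios for all T cells mix these subsets, and their log2 ratio of 0.18 had an interval that included 0 (-0.01 to 0.36).

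Slc7a2, the transporter, was the scarcest member by UMIs, with 46 in WT and 144 in Siah2-/- macrophages. Levels were 2.06 CPM (1.51 to 2.75) and 6.84 CPM (5.77 to 8.05), and the log2 ratio was 1.73 (1.24 to 2.24). Like Nos2 it was highest in the hypoxia-gene state, at 8.15 CPM (3.73 to 15.5) and 17.7 CPM (14.0 to 21.9). A Slc7a2 UMI was seen in 0.621% (0.321 to 1.08) of thinned WT macrophages and in 2.81% (2.15 to 3.61) of the others. In Siah2-/- it stood at 23.0 CPM (14.1 to 35.6) in thinned cells with a Nos2 UMI and at 6.24 CPM (4.59 to 8.30) in cells without, a log2 ratio of 1.88 (1.05 to 2.67). Within hypoxia-gene cells the levels were 33.2 CPM (20.0 to 51.9) and 15 CPM (9.31 to 23.0), and in the other states 1 UMI was seen in the 74 cells with Nos2. With WT state shares the log2 ratio between the libraries was 1.15. Mgl2 and MHC class II cells and cells with no list high had log2 ratios of 2.0 (0.80 to 3.36) and 1.33 (0.12 to 2.70). At this depth a difference between the libraries was not detectable in the interferon-induced, monocyte-like or cycling states, where each library had at most 7 UMIs, or in the resident-like state, where 11 WT and 2 Siah2-/- UMIs gave a log2 ratio of 0.23 (-2.99 to 2.42).

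Members were then read along the hypoxia score without the cut into states, over quintiles of all gated macrophages. Nos2 went from 0.637 CPM in the lowest quintile to 33.6 CPM (25.5 to 43.4) in the highest in WT, and from 1.32 to 122 CPM (113 to 131) in Siah2-/-, with 4 and 3 UMIs in the lowest quintiles. Within quintiles, in which scores were not matched between the libraries, the Nos2 log2 ratio between the libraries was 1.46 (0.59 to 2.40) in the third quintile, 2.31 (1.45 to 3.31) in the next and 1.86 (1.47 to 2.27) in the highest, while the intervals of the lowest quintiles included 0. Slc7a2 went from 0.478 to 8.10 CPM (4.43 to 13.6) in WT and from 1.76 to 14.3 CPM (11.4 to 17.7) in Siah2-/-, and the interval of its ratio included 0 in every quintile. Quintiles of a score of 14 interferon gamma and inflammatory genes gave another picture. Nos2 went from 1.21 to 14.0 CPM in WT and from 25.7 to 67.4 CPM in Siah2-/- from the lowest to the highest of these, and Ass1 from 84.3 to 304 CPM and from 264 to 542 CPM. Slc7a2 did not follow this score in Siah2-/-, with 8.16 CPM (4.98 to 12.6) in the lowest and 5.66 CPM (3.79 to 8.13) in the highest quintile.

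**Figure D4:**
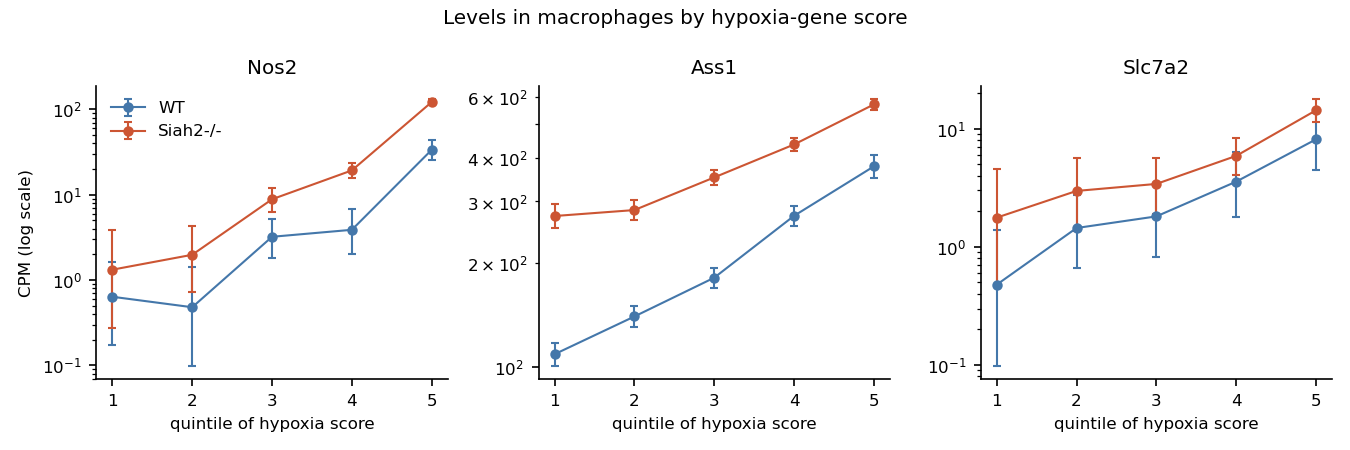
CPM (log scale) of each member in quintiles of gated macrophages by hypoxia-gene score, 1 being the lowest, with 95% Poisson intervals, for WT (blue) and Siah2-/- (red). Levels of all 3 genes are highest in quintile 5 in both libraries, and the red points lie above the blue points in every quintile.

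Few listed genes of arginine metabolism had ratios as far from 0 as the members, which were chosen with earlier results of these data known. Over all 10794 genes, 3.58% had a log2 ratio of at least 1 and 4.85% one of at most -1. At those shares, lists of this size would hold few such genes. Of 5 measured arginine transport genes, 0 had a log2 ratio of at least 1 or at most -1, with a median of -0.31. Slc7a1, the constitutive arginine transporter, had -0.38 (-0.74 to -0.03), and Slc7a7 had -0.31 (-0.44 to -0.19). The same held for 3 nitric oxide and citrulline genes, with a median of -0.57. Among them Asl, the enzyme after Ass1, had 0.23 (0.11 to 0.35), Ddah2, which clears a synthase inhibitor, had -0.95 (-1.29 to -0.63), and Prmt1, an arginine methyltransferase, had -0.57 (-0.65 to -0.48). Of 5 tetrahydrobiopterin genes, which make the cofactor of iNOS, 0 passed and the median was -0.35. Gch1, their rate-limiting enzyme, had 0.18 (0.07 to 0.28).

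Of the genes of polyamines and proline, 1 of 11 polyamine genes was past 1 and 1 past -1, with a median of -0.17. Smox, spermine oxidase, had 1.09 (0.99 to 1.19) and Srm, spermidine synthase, -1.01 (-1.16 to -0.87). Odc1, which turns ornithine into putrescine, had -0.17 (-0.32 to -0.03). None of 6 proline and ornithine genes passed (median -0.29), and P4ha1, a collagen prolyl hydroxylase subunit, had 0.31 (0.21 to 0.41). Both measured genes of the urea cycle and creatine list were lower, Gatm at -0.98 (-1.04 to -0.93) and Gamt at -0.56 (-0.76 to -0.36). Nos1, Cps1, Otc and Agmat were not analysed here, and Slc7a3, Nos3, Ddah1, Gchfr and Pycr1 had under 50 UMIs.

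Inducers of Nos2 and marker genes of macrophage activation were mixed. Of 14 interferon gamma and inflammatory genes 2 were past 1 and 1 past -1, with a median of 0.37. Ptgs2 had 1.97 (1.80 to 2.15) and Il1b 1.26 (1.24 to 1.29), while Il12b, an interleukin 12 subunit, had -4.13 (-5.37 to -3.12) and Tnf 0.01 (-0.16 to 0.18). The interferon gamma receptor genes Ifngr1 and Ifngr2 had 0.21 and -0.06. Of 10 alternative activation genes 2 were past 1 and 2 past -1, with a median of -0.55. Ccl24 had 2.54 (2.19 to 2.91) and Chil3 1.20 (1.16 to 1.24), whereas Cd163 had -2.60 (-3.99 to -1.44), Pparg -1.37 (-1.74 to -1.02) and Mrc1, the mannose receptor, -0.70 (-0.80 to -0.60). Of 9 hypoxia genes 7 were past 1 and 0 past -1, with a median of 1.22. Hilpda had 2.15 (2.02 to 2.29), Vegfa 2.08 (1.87 to 2.29) and Ndrg1 1.96 (1.77 to 2.16), and Hif1a had 0.90 (0.81 to 0.98).

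**Figure D5:**
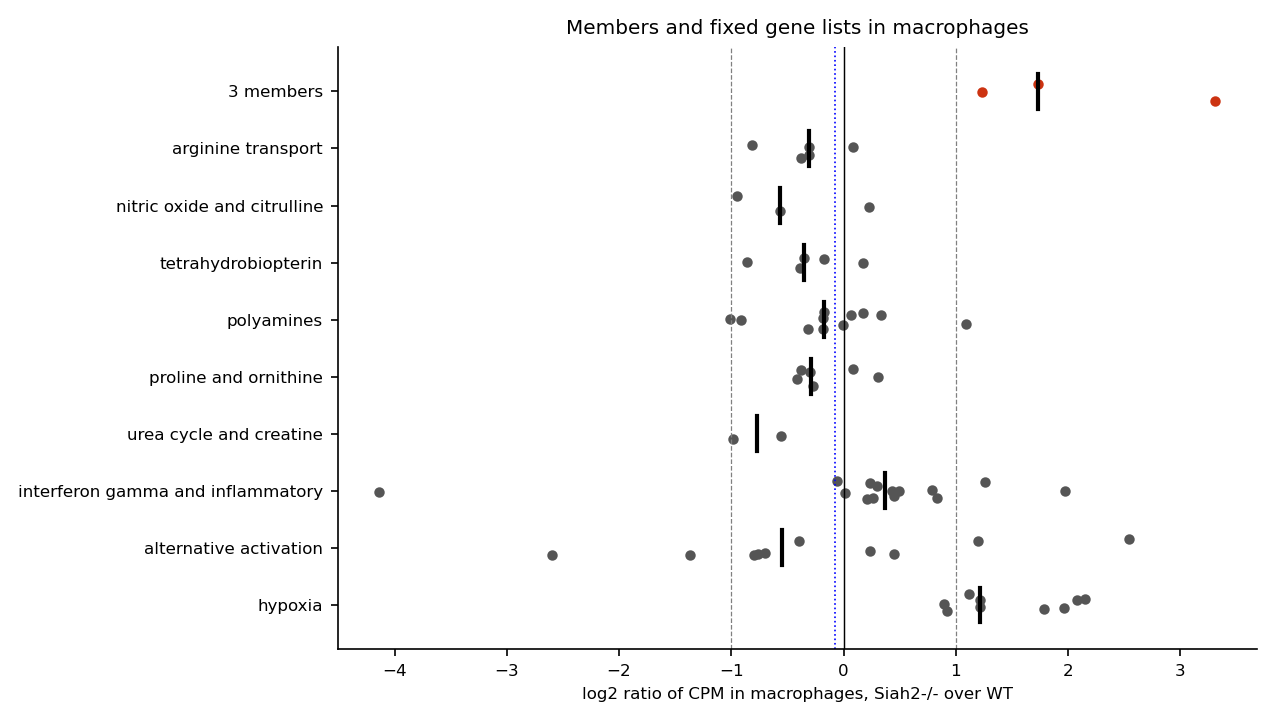
Log2 ratio of CPM in gated macrophages (Siah2-/- over WT) of the 3 members (red) and of fixed gene lists (grey), each point a gene with at least 50 UMIs. Black bars are list medians, the dotted line is the median of all 10794 genes (-0.07) and dashed lines mark -1 and 1. The 3 members lie right of 1, and the medians of the arginine pathway lists lie between -0.77 and -0.17.

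Over 22 groups of cells (11 classes and macrophage states in each library, sharing libraries and free RNA), the genes whose log2(CPM + 10) was most like that of Nos2 among 4530 genes were Vegfa (Pearson r = 0.94), Rhov (0.91), Ero1l (0.91), Bnip3 (0.88) and Slc2a1 (0.87). Vegfa encodes an angiogenic growth factor, Ero1l an oxidoreductase of the endoplasmic reticulum, Bnip3 a mitophagy receptor and Slc2a1 a glucose transporter, and these 4 also define the hypoxia-gene state. Slc7a2 had 0.91 with Nos2, and Ass1 had 0.61. Slc7a2 was not among the 4530 genes, because its levels over the groups ran from 0 to 17.7 CPM and did not reach 50 CPM. These correlations are across groups of cells, not samples, and are descriptions.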

How the data were processed

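The authors used bcl2fastq and Cell Ranger on mm10/GRCm38 (versions not given in the sources used here) to count UMIs, and kept cells between quantiles of detected genes and below a mitochondrial limit. The deposited files are unfiltered matrices of UMI counts (27998 genes, 737280 barcodes), a table of raw counts (10100 cells) and a table that the authors normalized as the natural log of 1 plus UMIs per 10000. The natural log values entered no result, but their 10075 cells were the cells analysed. Members' counts were equal in the raw table and the matrices in every cell, and 0 columns of other samples were left out.

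Levels are summed UMIs per 1000000 UMIs of the gated cells. Cells with both macrophage and T or NK markers were kept apart as possible doublets, and no doublet caller was run. T cells needed UMIs of 2 of 3 CD3 genes, NK cells 3 of 5 and dendritic cells 3 of 8 markers, each except dendritic cells with at most 2 macrophage markers, and CD45- cells lacked Ptprc and had 3 of 5 matrix genes or Hmga2. A state is the list with the highest standardized score, if at least 0.5 SD. Shares of cells with a UMI were taken after thinning each cell to 4000 UMIs, below the lowest cell (4896), so no cell was left out, except where given as without thinning. Gates and states used all UMIs. Empty droplets are barcodes of 10 to 100 UMIs. A count of 3 was the floor. Named genes are the members, fixed pathway and inducer lists, and the 5 genes with the highest correlation with Nos2 over groups of at least 50 cells per library that reached 50 CPM. A gene was called at a log2 ratio of at least 1 or at most -1. Members and lists were chosen with earlier results of these data known, and gate thresholds were set after marker detection had been seen. The ratio and thinning steps were tested on simulated data. Some genes of the set and the results that need them are not reported here. Co-detection of Nos2 and Ass1, and cells with and without Nos2, were examined after earlier results had been seen. Alternatives were other UMI limits, scalings, gates, free RNA subtraction, and leaving out cells with most UMIs. Python 3.11.15, numpy 2.4.6, scipy 1.17.1, pandas 2.3.3 and matplotlib 3.10.9 were used.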

Additional observations from a re-analysis of the deposited data

Results flagged for a closer look

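Barcodes that the authors did not keep held the members too. In the unfiltered matrices, 1177 WT and 432 Siah2-/- barcodes of at least 1000 UMIs passed the same macrophage gate and were not in the authors' tables, with medians of 5453 and 4079.5 UMIs. Their log2 ratios (Siah2-/- over WT) were 3.76 (3.22 to 4.34) for Nos2, 0.36 (0.24 to 0.47) for Ass1 and 1.92 (0.87 to 3.01) for Slc7a2. For Ass1 this was below the 1.23 of the kept cells, and its WT level in the barcodes not kept was 295 CPM, against 177 CPM in kept WT macrophages.

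Ass1 moved in opposite directions in macrophages and in T cells with Cd4 and without Cd8a, where its log2 ratio was -1.07 (-1.41 to -0.72). The difference was not tested, and the WT value rests on 46 cells, of which 25 had an Ass1 UMI after thinning to 4000 UMIs and 30 without thinning.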

How the results depend on the processing

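Of 24 other ways to take the log2 ratios that did not choose cells by the gene itself, 23 gave at least 1. The other was the ratio of Ass1 with states weighted by their WT shares (0.89), where Nos2 was at 2.12 and Slc7a2 at 1.15. Leaving out the 1% of cells with most UMIs of the gene chooses cells by the outcome and says nothing about stability. It took 61.3% of WT and 24.8% of Siah2-/- Nos2 UMIs and 56.5% and 35.4% of those of Slc7a2, and so raised the ratios to 4.27 and 2.30 by construction. Ass1 was 1.01 with every barcode of at least 1000 UMIs, 1.17 with a lowest UMI count of 6670 in both libraries, 1.31 with median of ratios scaling, 1.33 with the stricter gate and 1.17 as the mean of per-cell levels. Ass1 summed with Gm5424, chosen after the data were seen, gave 1.29. Free RNA subtraction and leaving out the 5% of cells with most UMIs left all 3 within their main intervals. The cause of the other shifts was not tested. Co-detection of Ass1 and Nos2, and its alternatives, were chosen after the data were seen, and it followed depth and threshold. Without thinning it was 2.64% in WT and 14.7% in Siah2-/-, from 2 UMIs of each gene 0.0517% and 2.72%, and at 2000 UMIs 0.466% and 4.0%. With 1 library per genotype, the spread between samples could not be measured. No paired analysis was possible because each group holds 1 library.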

Other observations

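Gm5424, the copy of Ass1, did not keep a fixed share of the sum with Ass1. Its share was 5.49% in WT macrophages and 9.19% in those of Siah2-/-, and 4.19% and 10.7% in dendritic cells and 6.72% and 9.22% in T cells. Its own log2 ratio in macrophages was 2.03 (1.82 to 2.25), which placed it at 52 of 10794 genes, above Ass1 at place 240. A source for the unequal split was not tested.

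Dendritic cells with UMIs of both Ccr7 and Fscn1, which mark mature dendritic cells, had more Ass1 than the other dendritic cells of their library. The levels were 348 CPM (298 to 402) in 43 cells against 191 CPM (166 to 219) in 77 cells of WT, and 474 CPM (428 to 524) in 79 cells against 279 CPM (244 to 317) in 71 cells of Siah2-/-.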
